A study of Sus scrofa with 6 samples.

Results

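Complement components and regulators were examined in aortic valve leaflets of female and castrated male pigs. The members were chosen by name, as every probe set that the array annotation or the study's list of differing probe sets gives to CD55, CD46, CD59, C3, C1S, C1R, CFB, CR2 or C5AR1. This gave 16 probe sets for 8 of the 9 genes, out of 23999 probe sets on the array other than controls. CD55 had 5 probe sets, CD46 had 3, CD59 and CFB had 2 each, and C3, C1S, C1R and CR2 had 1 each, while C5AR1, the receptor of the C5a fragment, had none. Where a gene has several probe sets they are lettered from the highest mean level down (CD55-a to CD55-e), and the plots give the array's own identifiers beside the letters. The probe set of CR2 is named so in the study's list only, and the array annotation gives it to CR1, so it is called the CR2 (CR1) probe set below. Because that list holds probe sets that were called different between the sexes, the presence of CR2 among the members rests on the same arrays.

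The pigs were of mixed breed and 5 months old, and the 6 arrays held RNA of 3 males and 3 females, 1 pig per array. Leaflets were taken within 5 hours of death and their endothelium was scraped off with a scalpel before RNA was isolated. All males were castrated, so that sex and castration cannot be told apart. The values are log2 expression values from Robust Multi-array Analysis (RMA), a method that subtracts background, equalizes the distributions of the arrays and combines the probes of a probe set into 1 value. Values are therefore compared between the sexes within a probe set, and not between probe sets. With 3 arrays per sex, the number of arrays limits how precise each difference is.

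Complement is a cascade of plasma proteases and their substrates that marks surfaces for uptake and perforates membranes. The classical pathway starts when C1q binds a surface and the proteases C1r and C1s cleave C4 and C2, and the alternative pathway runs through C3 and factor B (CFB). Both lead to cleavage of C3 and then to the membrane attack complex of the terminal components. Host cells carry CD55, which speeds the decay of the C3 convertases, CD46, a cofactor for cleavage of C3b and C4b by factor I, and CD59, which blocks the membrane attack complex. CR1 and CR2 bind fragments of C3 and C4, and CR2 is best known from B cells and follicular dendritic cells. The liver makes most plasma complement, but fibroblasts, endothelial cells and macrophages also make components such as C1r, C1s and C3.

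Of the membrane regulators, CD55 was higher in male leaflets at 2 of its 5 probe sets, while CD46 and CD59 did not pass the test at any probe set. A call needed at least a 2-fold difference and, in limma, an adjusted p under 0.05. Over all probe sets, 1 of the 16 complement probe sets was called, a CD55 probe set higher in males, where 0.304% of all probe sets were called, 0.167% higher and 0.138% lower in males. Because the study's list was made after a filter on the coefficient of variation (CV), limma was also run on the most variable 10% of probe sets by CV over all arrays. The methods describe that filter the other way, as removing probe sets whose replicates were not similar enough, but keeping the highest CV gave the 183 probe sets of the study's list. The CV filter kept 5 of the 16 probe sets, and 3 of them were called, 2 of CD55 higher and CR2 (CR1) lower in males, against 7.59% of the probe sets kept (4.6% higher and 2.99% lower in males). These 3 are in the study's list because the filter returns that list, which is no separate check. A CV over all arrays is itself larger where the sexes differ, so the 2 adjusted p values are given side by side. When instead the 10% that varied most within a sex, by CV, were left out, a filter chosen after seeing the data, CD55-c and CR2 (CR1) were not tested and CD55-a was the 1 member called (adjusted p = 0.0128 from limma). Leaving out 20% in this way removed CD55-a too.

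CD55-a was at 9.68, 9.38 and 8.63 in males 1, 2 and 3 and at 7.51, 7.32 and 7.11 in females 1, 2 and 3. The lowest male thus lay above the highest female. Males averaged 9.23 ± 0.54 (SD, n = 3) and females 7.31 ± 0.20 (SD, n = 3), which is 3.79-fold apart (log2 fold change 1.92, standard error 0.26, 95% confidence interval 1.30 to 2.54). Its adjusted p from limma was 0.0451 over all probe sets and 0.0113 with the CV filter. Over all probe sets the call rested on every array but male 3. Without male 1, male 2, female 1, female 2 or female 3, the adjusted p from limma was 0.129, 0.175, 0.0921, 0.116 and 0.157, and without male 3 it was 0.00823. With the CV filter it was called whichever array was left out (limma's adjusted p reached 0.0493 at most), and the log2 fold change stayed between 1.70 and 2.22. That filter favours probe sets that differ between the sexes, so these calls are no separate check.

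CD55-c was at 6.77, 5.96 and 5.25 in the males and at 4.36, 4.80 and 4.36 in the females. The sexes again did not overlap, and males 1, 2 and 3 kept the order they had at the first probe set. The values of all females and of male 3 lay under the 25th percentile of their array (5.47 to 5.59), so the size of this difference depends on the background. CD55 was 2.81-fold higher in males here (log2 fold change 1.49, standard error 0.36, 95% confidence interval 0.65 to 2.33), with an adjusted p from limma of 0.140 over all probe sets and 0.0495 with the CV filter. With the CV filter this call was lost without any array except male 3 (adjusted p 0.0526 to 0.187 from limma), and over all probe sets it was gained without male 3 (0.0395).

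The other 3 CD55 probe sets did not pass. CD55-b was at 6.69, 6.70 and 6.52 in males and 6.72, 6.27 and 6.54 in females, with the sexes overlapping and a log2 fold change of 0.12 (95% confidence interval -0.21 to 0.45). This interval does not reach the differences measured at CD55-a and CD55-c. CD55-d and CD55-e lay under the 25th percentile on all 6 arrays, with log2 fold changes of 0.25 and 0.24. Between CD55-a and CD55-b, the within-array difference was 2.60 in males and 0.80 in females on the log2 scale and did not overlap between the sexes (exact permutation test, two-sided, p = 0.1). With 3 against 3 arrays, 0.1 is the smallest p this test can give. Over the 15 pairs of probe sets for the same gene, 10 reached it and none passed after adjustment (adjusted p of at least 0.15).

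**Figure D1:**
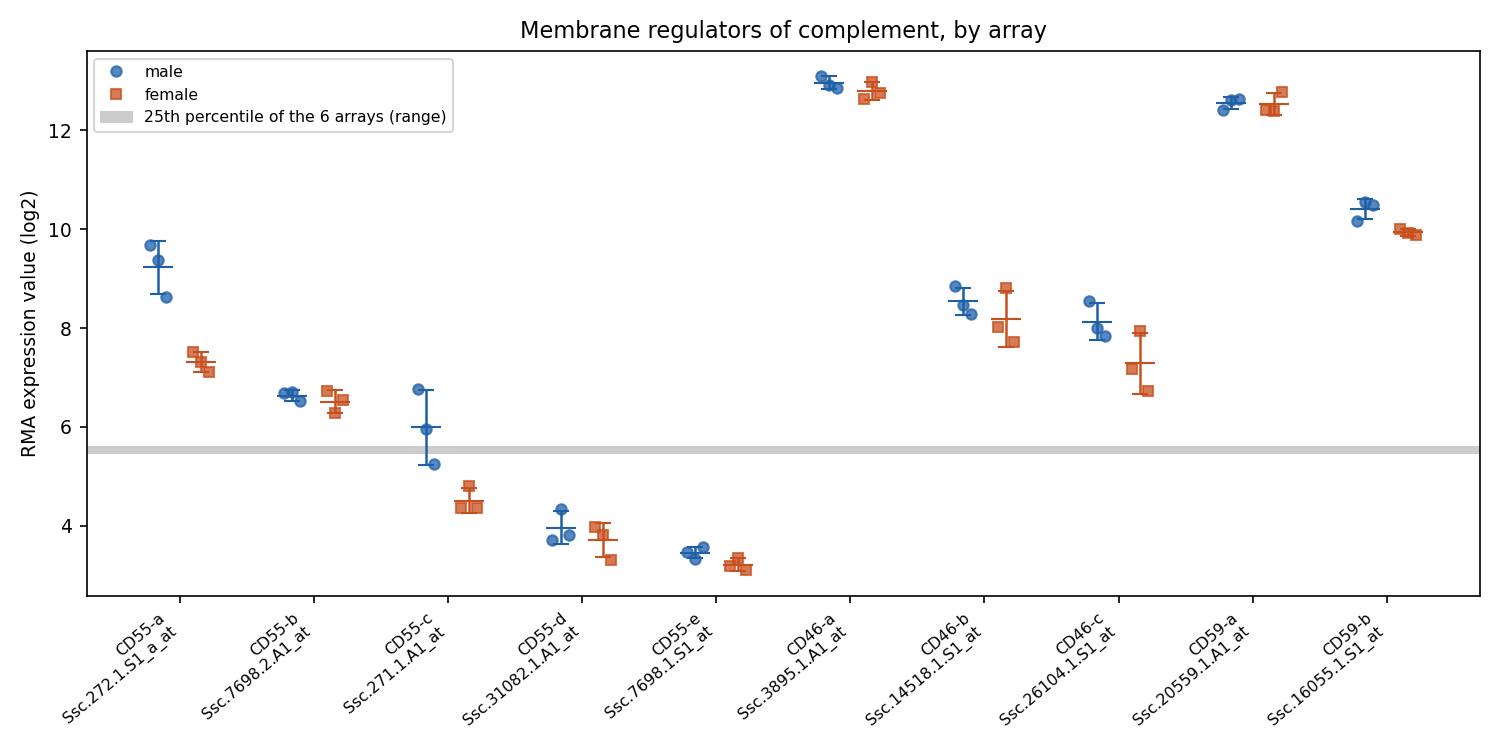
RMA expression value (log2) of each probe set of CD55, CD46 and CD59 on the 3 male (circles) and 3 female (squares) arrays, in the order of the replicates, with bars for the mean ± SD of males and of females and the range of the 25th percentile of the 6 arrays as a grey band. The male values of CD55-a (8.63 to 9.68) lie above all female values (7.11 to 7.51), whereas those of CD46 overlap at each of its 3 probe sets.

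CD46 was not called at any of its 3 probe sets. CD46-c was at 8.55, 7.998 and 7.85 in males and at 7.18, 7.94 and 6.73 in females. Female 2 reached into the male range there, and the other females lay below it. Its log2 fold change was 0.85 (standard error 0.32, 95% confidence interval 0.09 to 1.61), with an adjusted p from limma of 0.259 over all probe sets and 0.161 with the CV filter. CD46-b showed the same female 2 at 8.81, between the males at 8.85, 8.47 and 8.30, and the other females at 8.01 and 7.71, for a log2 fold change of 0.36. CD46-a varied least, from 12.87 to 13.11 in males and 12.63 to 12.99 in females, and its log2 fold change of 0.17 had a 95% confidence interval of -0.13 to 0.48. A 2-fold difference lies outside that interval, and inside those of the other CD46 probe sets.

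CD59 gave different values at its 2 probe sets. CD59-b was at 10.17, 10.56 and 10.49 in males and 10.02, 9.93 and 9.88 in females, without overlap of the sexes. The log2 fold change of 0.46 (standard error 0.13, 95% confidence interval 0.16 to 0.77) did not pass (adjusted p = 0.171 from limma over all probe sets) and was under 2-fold. CD59-a was at 12.41, 12.61 and 12.64 in males and 12.41, 12.40 and 12.78 in females, so the ranges overlapped. Its log2 fold change of 0.024 (95% confidence interval -0.31 to 0.36) turned negative without male 2, male 3, female 1 or female 2 (lowest -0.041), and so gives no direction.

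**Figure D2:**
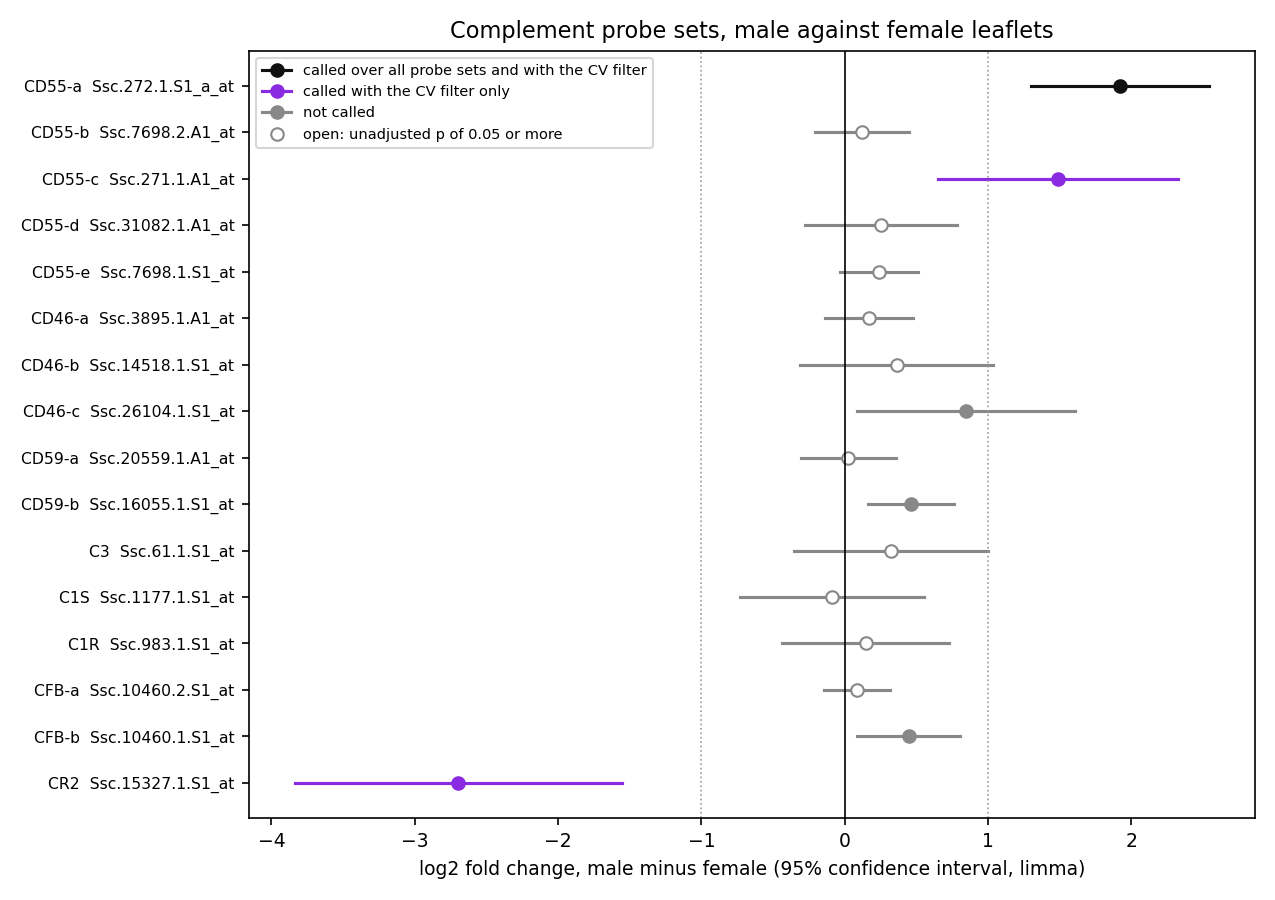
Log2 fold change, male minus female, of the 16 complement probe sets, with 95% confidence intervals from limma over all probe sets. Dotted lines mark 2-fold. CD55-a (1.92) was called in both comparisons, CD55-c (1.49) and CR2 (CR1) (-2.69) with the CV filter only, and open points had an unadjusted p of 0.05 or more.

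Endothelial cells also carry CD55, CD46 and CD59, and markers of endothelial cells were higher on the male arrays although the leaflets had been scraped. In bulk RNA, fewer cells of a type and less RNA per cell cannot be told apart. Of 15 listed endothelial markers 13 were measured, 11 with a higher mean in males, where 49.1% of all probe sets had one. The CV filter kept 8 of the 13. Of these ICAM2 and ESAM were called (log2 fold changes 1.70 and 1.59), against 7.59% of the probe sets kept. None was called over all probe sets. At an unadjusted p under 0.05 from limma, 7 of the 13 passed, where 16.9% of all probe sets did. The adhesion molecule PECAM1 was at 13.69, 13.31 and 12.61 in males and at 12.16, 12.28 and 11.83 in females. VWF overlapped between the sexes, at 10.58, 10.90 and 9.68 in males and at 9.27, 11.33 and 9.41 in females. ERG had a lower mean in males (log2 fold change -0.25), also with overlap. The summed level of the 13 markers, taken on the linear scale and given as log2, was 14.82, 14.46 and 13.72 in males and 13.30, 13.88 and 13.23 in females, so the sexes overlapped. PECAM1 had the highest value of the 13 on every array, so it weighs most in the sum, and markers of low value add little. Of the defining markers, CDH5, PECAM1 and TIE1 lay above the 25th percentile on all arrays, and KDR lay under it at the annotated probe set used in the sum. Another probe set, which the study's list alone names KDR, was at 9.53, 9.23 and 8.62 in males and at 6.07, 7.05 and 7.16 in females, without overlap. It was called with the CV filter (log2 fold change 2.37, limma's adjusted p 0.00686) and not over all probe sets (0.0507). Males 1, 2 and 3 had the same order in this sum as in CD55-a and CD55-c. At CD55-a female 1 was the highest female (7.51), while female 2 had the highest sum of the females. CD46-c ranked all 6 arrays in the order of the sum. CD46-a and CD46-b did not, with female 2 (12.99 and 8.81) above male 2 (12.91 and 8.47). At both CD59 probe sets male 1, which had the highest sum, was the lowest male. The part of endothelial cells in the CD55 and CD46 values was not tested.

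**Figure D3:**
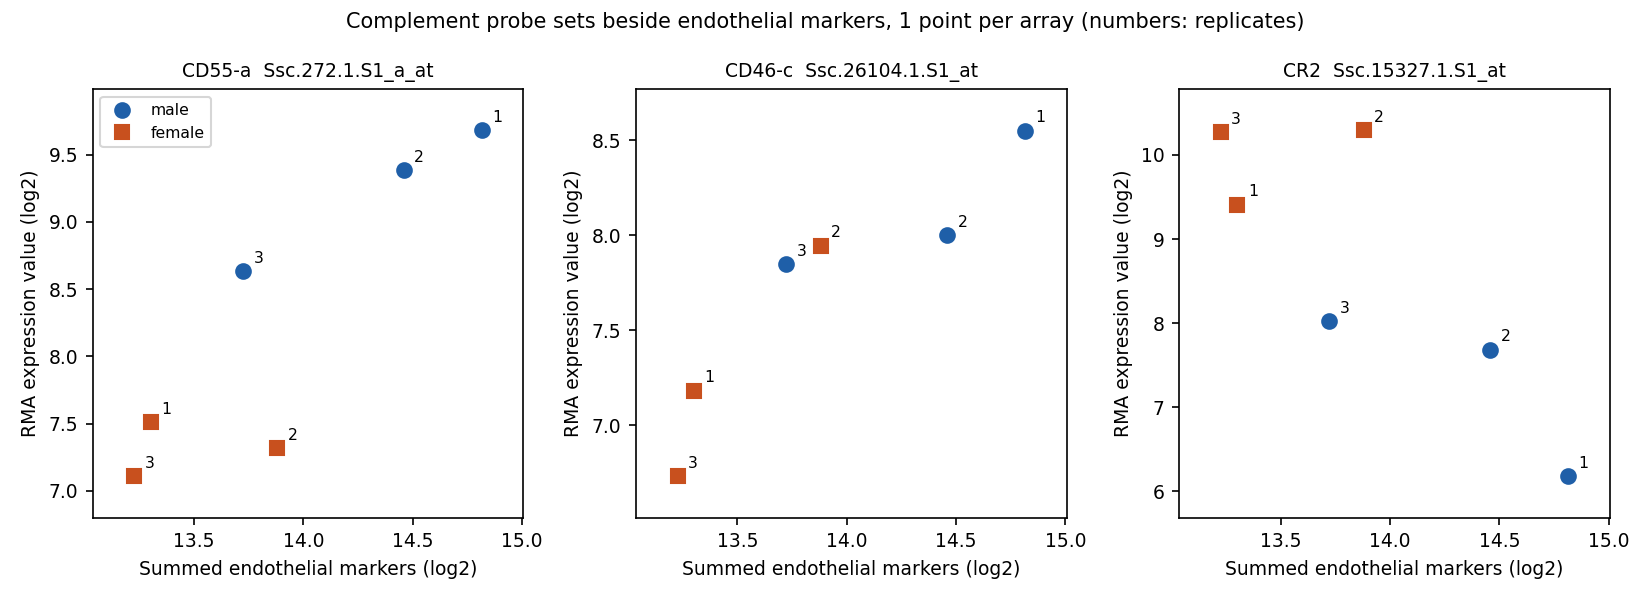
RMA expression value (log2) of CD55, CD46 and CR2 (CR1) probe sets against the log2 of the summed linear level of 13 endothelial markers, with 1 point per array (male circles, female squares, numbered by replicate). CD55 at female 2 was 7.32 where the sum was 13.88, while at male 3 it was 8.63 where the sum was 13.72, and CR2 (CR1) was lowest (6.18) on the array with the highest sum (14.82).

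The CR2 (CR1) probe set had the largest difference of the 16 and ran the other way. It was at 6.18, 7.68 and 8.02 in males and at 9.41, 10.29 and 10.27 in females. All males lay below all females, and male 1 stood lowest. The means were 7.29 ± 0.98 (SD, n = 3) in males and 9.99 ± 0.50 in females, so that the probe set was 6.48-fold higher in females (log2 fold change -2.69, standard error 0.49, 95% confidence interval -3.84 to -1.55). Its adjusted p from limma was 0.0817 over all probe sets, where it was not called, and 0.0099 with the CV filter. With that filter it was called whichever array was left out (limma's adjusted p up to 0.0249). The filter favours probe sets that differ between the sexes and returns the list that names this member, so these calls are no separate check. Over all probe sets the CR2 (CR1) probe set passed without male 3 (adjusted p = 0.0448 from limma). The log2 fold change was -2.14 without male 1 and -3.06 without male 3. In the RefSeq gene order of the Sscrofa11.1 assembly, CR1 and CD55 are neighbours with 1 gene between them, which codes for no protein.

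The cells that are known for CR2 were covered by few markers. Of 11 listed markers of B cells, T cells and follicular dendritic cells 6 were measured, of which CD3D, CD3E, CD3G and CD2 mark T cells, and none was called (0 with an unadjusted p under 0.05 from limma, and 0 with the CV filter). CD79B, part of the B cell receptor, was at 3.83 to 4.13 on all arrays, under the 25th percentile. CXCL13, a chemokine of follicles, was at 5.85, 8.27 and 6.41 in males and 6.96, 5.90 and 6.42 in females. The summed level of the list was 8.49 to 9.85 in males and 8.36 to 9.78 in females, highest on male 2 and female 1. This sum follows T cell genes for the most part, and the part of B cells or follicular dendritic cells in the CR2 (CR1) values was not tested.

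C3 and the C1 proteases did not pass. C3, the substrate on which all pathways meet, was at 12.86, 13.60 and 13.80 in males and at 13.55, 12.90 and 12.83 in females, with overlap of the sexes. Its log2 fold change was 0.32 (95% confidence interval -0.35 to 1.00, adjusted p = 0.617 from limma over all probe sets). C1R was at 12.72, 13.38 and 13.27 in males and 13.17, 13.24 and 12.51 in females, with means of 13.12 ± 0.36 and 12.98 ± 0.40 (SD, n = 3). C1S was at 12.38, 13.19 and 12.75 in males and 13.20, 13.02 and 12.37 in females, with means of 12.77 ± 0.41 and 12.86 ± 0.44. For both proteases the ranges of the sexes overlapped, and the log2 fold changes of 0.15 for C1R (95% confidence interval -0.44 to 0.73) and -0.089 for C1S (-0.73 to 0.55) do not reach a 2-fold difference at that confidence. Their signs were not stable, since that of C1R turned without female 3 (-0.083) and that of C1S without male 1 or female 1 (0.11 and 0.079) and with array weights (0.20).

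C1R and C1S, neighbours in the genome with no gene between them, were both lowest on male 1 and female 3. Over the 6 arrays their values correlated at r = 0.87 (exact permutation p = 0.0361, adjusted p over the 3 pairs of C1R, C1S and C3 = 0.108) and rho = 0.60 (exact permutation p = 0.242, adjusted p = 0.242). Without male 1 and female 3, the arrays farthest from the median of C1R, r was 0.0094, so the r of 0.87 depends on those 2 arrays. Leaving out the extremes of C1R narrows its range and leaves 4 arrays, so the remaining r is imprecise. C1R and C3 had r = 0.73 (exact permutation p = 0.125, adjusted p = 0.178) and rho = 0.89 (p = 0.0333, adjusted p = 0.1), and r without the same arrays was 0.24. C1S and C3 had r = 0.59 and rho = 0.60 (exact permutation p = 0.178 and 0.242, which are also the adjusted values), and r without them was -0.22.

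CFB, the protease of the alternative pathway convertase, was not called at either probe set. CFB-b was at 6.49, 6.30 and 5.93 in males and at 5.83, 5.73 and 5.82 in females. Every male lay above every female, with a log2 fold change of 0.45 (95% confidence interval 0.09 to 0.81, adjusted p = 0.225 from limma over all probe sets). CFB-a was at 6.10 to 6.25 in males and 6.01 to 6.14 in females, with overlap and a log2 fold change of 0.088 (95% confidence interval -0.14 to 0.32). All values of both probe sets lay above the 25th percentile of their array, which was 5.47 to 5.59.

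**Figure D4:**
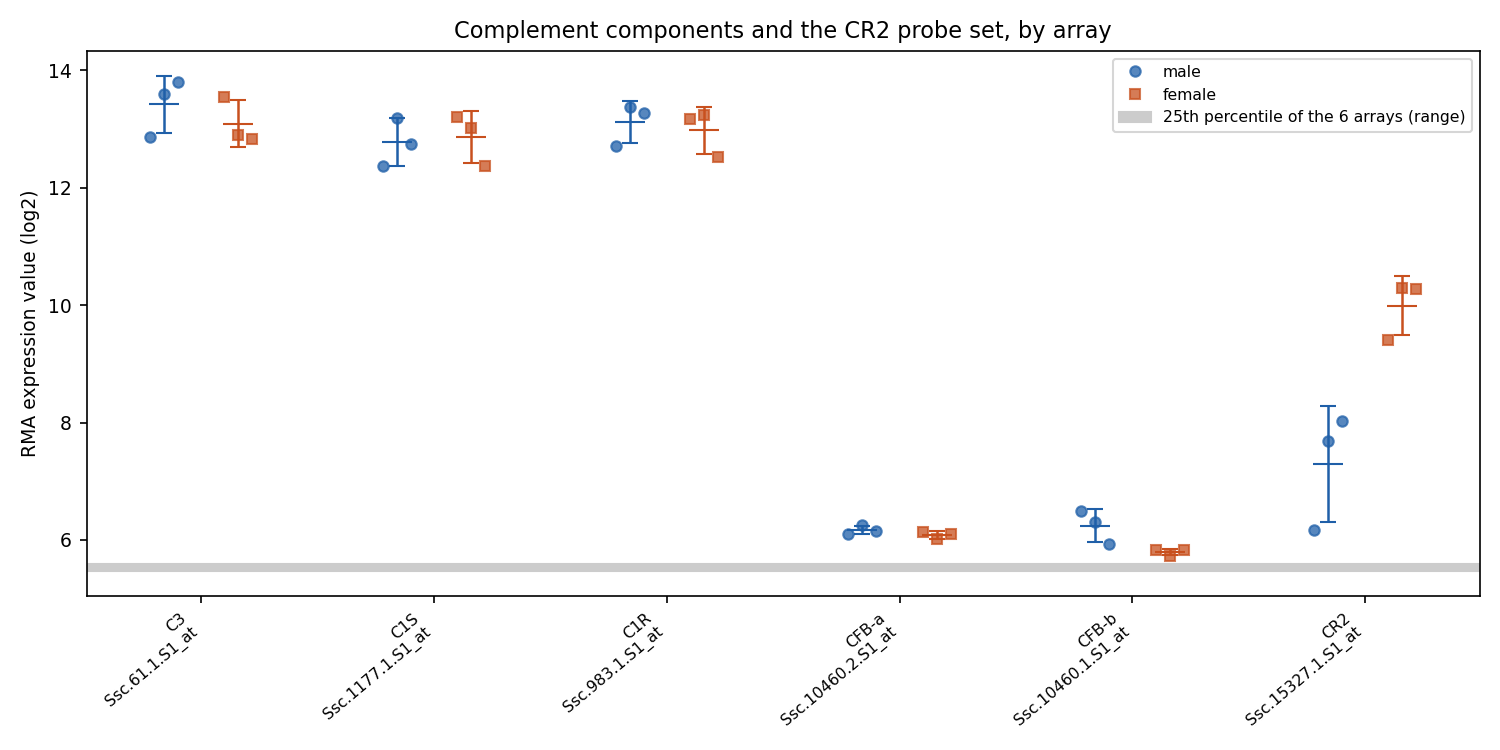
RMA expression value (log2) of the probe sets of C3, C1S, C1R, CFB and CR2 (CR1) on the 3 male (circles) and 3 female (squares) arrays, in the order of the replicates, with bars for the mean ± SD of males and of females and the range of the 25th percentile of the 6 arrays as a grey band. The CR2 (CR1) values lie at 6.18 to 8.02 in males and at 9.41 to 10.29 in females, and the values of C3, C1S and C1R overlap.

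Across the 16 probe sets, the mean was higher in males at 14 and lower at 2, and the median log2 fold change was 0.25, against -0.0053 over all probe sets, of which 49.1% had a higher mean in males. The sexes did not overlap at 5 of the 16, where 22.4% of all probe sets did not overlap. The 4 that were higher in males belong to CD55 (2), CD59 and CFB (11.1% of all probe sets), and the 1 that was lower is CR2 (CR1) (11.4% of all). An unadjusted p under 0.05 from limma was reached by 6 of the 16, CD46-c with the 5 just named, where 16.9% of all probe sets reached it (8.08% higher and 8.83% lower in males). Probe sets named for 1 gene are not independent of each other, whether or not they read the same transcripts, which was not tested, and 3 of the 5 that did not overlap were known as different from the study's list.

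Other genes of the complement pathway, named by the array annotation and represented by the probe set with the highest mean, did not pass. Of 41 further genes listed, 26 were measured, and the male mean was the higher one for 11 and the lower one for 15 (median log2 fold change -0.044). None was called over all probe sets or with the CV filter by limma. At an unadjusted p under 0.05, 3 of the 26 passed, C4A, C9 and C8G, where 16.9% of all probe sets did. The sexes did not overlap at 4 of the 26, against 22.4% of all probe sets.

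The 4 measured classical pathway genes besides C1R and C1S all had a higher mean in males. C4A, the complement component that C1s cleaves, was at 11.09, 11.69 and 12.27 in males and 10.58, 11.21 and 9.53 in females. Male 1 lay below female 2 and female 3 stood lowest, and the log2 fold change was 1.25 (95% confidence interval 0.18 to 2.32, adjusted p = 0.243 from limma over all probe sets and 0.106 with the CV filter). C4 genes can have near-identical copies, which this probe set may not tell apart. C2, the protease that pairs with C4b, had a log2 fold change of 0.66, and the C1q chains C1QA and C1QC of 0.30 and 0.26. Macrophages make C1q, and the summed level of the 7 measured of 13 listed macrophage markers was 13.74 to 14.13 in males and 13.58 to 14.23 in females. Of these, TYROBP, a signalling adaptor of myeloid cells, had the smallest p (0.0386 unadjusted, 0.271 adjusted, from limma), with a log2 fold change of 0.42.

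Of 6 measured terminal components, 4 had a lower mean in males. C9, which forms the ring of the membrane attack complex, was at 6.55, 7.47 and 7.18 in males and at 7.76, 7.87 and 8.09 in females. Its sexes did not overlap, and the log2 fold change was -0.84 (95% confidence interval -1.38 to -0.29, adjusted p = 0.173 from limma over all probe sets). The other C9 probe set, of lower mean, had a log2 fold change of -0.17. C8G had a log2 fold change of -0.33 without overlap, and C7, which inserts the complex into the membrane, one of 0.26 without overlap and, at its other probe set, one of 0.68. Hepatocyte markers, of which 6 of 7 were measured, all had a lower mean in males. Their summed level was 11.38 to 12.17 in males and 11.89 to 12.40 in females. ALB and FGB lay under the 25th percentile on all arrays, and APOA1 was at 11.25 to 12.31. The smallest p was that of SERPINA1, a protease inhibitor, with a log2 fold change of -0.93 (limma, 0.0401 unadjusted and 0.275 adjusted). SERPINA1 lay under the 25th percentile in all males and in female 3, and the sexes overlapped. The part of hepatocyte genes in the C9 values was not tested.

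Soluble regulators differed little. SERPING1, the inhibitor of C1r and C1s, was at 12.46 to 12.98 in males and 12.63 to 13.00 in females (log2 fold change -0.017, 95% confidence interval -0.42 to 0.39). Clusterin (CLU), which binds terminal complexes, had a log2 fold change of 0.063 (95% confidence interval -0.23 to 0.36) and C4BPA, a chain of the C4b-binding protein, one of -0.018 (-0.24 to 0.21). CPN1, an enzyme that trims anaphylatoxins, had the largest change of the 6 measured, with a log2 fold change of -0.12. Of the lectin pathway 3 genes were measured, and FCN2, a recognition protein, had a log2 fold change of -0.29 at 4.84 to 5.66. CFD, the protease that cleaves factor B, had a log2 fold change of -0.31 and CFP, which stabilizes the alternative convertase, one of -0.25.

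None of the 5 receptors measured by the array annotation was called. CD93, once described as a C1q receptor and known from endothelial cells, had a log2 fold change of -0.52 at the probe set of highest mean. Its 95% confidence interval was -1.04 to 0.0032, and the sexes overlapped. A further CD93 probe set is named in the study's list only. It was at 7.81, 8.42 and 7.67 in males and at 6.60, 6.77 and 6.15 in females, and was called with the CV filter (log2 fold change 1.46, limma's adjusted p 0.0334), but not over all probe sets (0.0691). The remaining CD93 probe set, named by the array annotation, had a log2 fold change of -0.043 with overlap of the sexes. The probe sets of CD93 thus differed in their values, and those named by the array annotation did not pass. ITGB2, the beta chain of the C3 fragment receptors of leukocytes, had a log2 fold change of 0.32 and VSIG4, a C3b receptor of macrophages, one of 0.077.

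**Figure D5:**
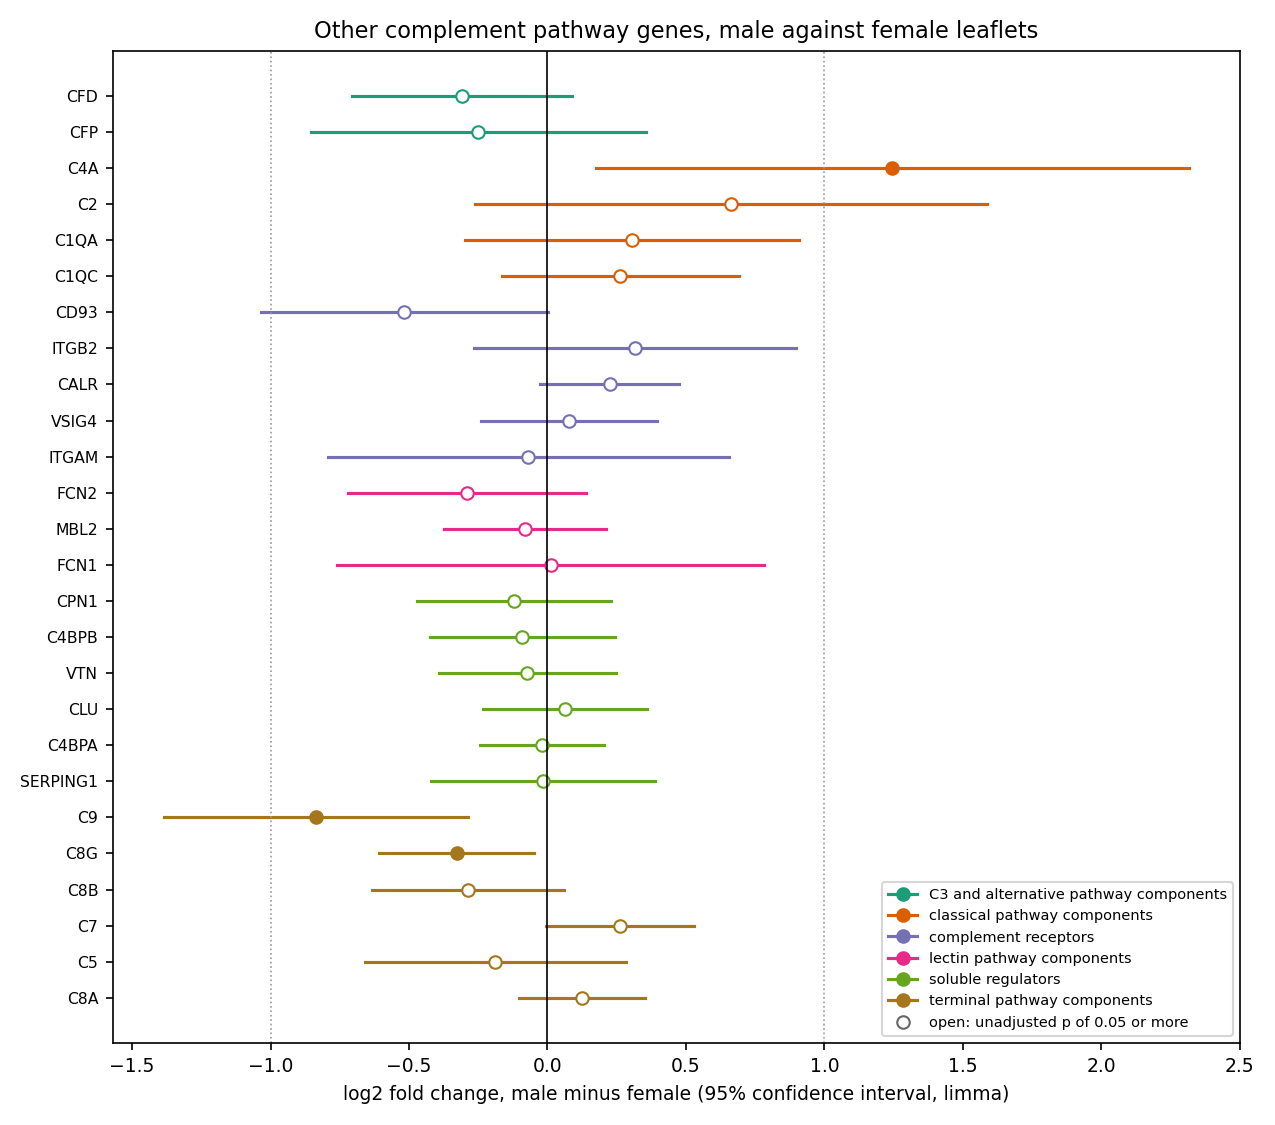
Log2 fold change, male minus female, of 26 other complement pathway genes by role, with 95% confidence intervals from limma over all probe sets and 1 probe set per gene. Dotted lines mark 2-fold and open points had an unadjusted p of 0.05 or more. The changes range from -0.84 (C9) to 1.25 (C4A), and no gene was called.

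Of the markers of valve interstitial cells and fibroblasts, 12 were listed and 9 were measured. Their summed level was 16.51 to 16.7002 in males and 16.7004 to 16.90 in females, so the sexes nearly touched without overlapping. Vimentin (VIM) was at 14.30 to 14.44, while COL3A1 was at 7.05 to 7.36, under the median of each array (7.33 to 7.38). The mean was lower in males for 8 of the 9 markers, where 49.1% of all probe sets had a higher mean in males. None was called by limma. An unadjusted p under 0.05 was reached by 2, DCN and PDGFRB, whose sexes also did not overlap. Of all probe sets, 16.9% reached it and 22.4% did not overlap. DCN had a log2 fold change of -0.38. A probe set that the study's list alone names DDR2, another of the 12 listed markers, was called higher in males with the CV filter. Its log2 fold change was 1.28, with limma's adjusted p at 0.0473 there and 0.0769 over all probe sets, where it was not called. Females 2 and 3 (5.05 and 5.45) lay under the 25th percentile of their array, so the size of this difference depends on the background. The part of interstitial cells in the CR2 (CR1) values was not tested.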

How the data were processed

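Leaflet RNA (400 ng per sample) of 3 male and 3 female pigs was run on the Affymetrix Porcine Genome Array. The authors normalized the arrays by RMA under R 2.12.0 and deposited log2 values for 24123 probe sets including 124 controls. Raw intensities were not used, and no further normalization was applied. Groups and replicate numbers were taken from the sample titles.

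Males were compared with females in limma 3.58.1 (statmod 1.5.0, R 4.3.3; lmFit and eBayes, no covariate), over the 23999 probe sets other than controls and, separately, over the 2412 probe sets with the highest CV of the log2 values. The methods give no share and describe the filter as removing probe sets with dissimilar replicates. Keeping the highest 10% was chosen because its 183 calls are the 183 probe sets of the study's list, so these calls are no check of that list. Calls needed a Benjamini-Hochberg adjusted p under 0.05 and 2-fold. The intervals and p-values of limma set each difference against the spread between arrays of a sex, drawn toward the spread of all tested probe sets. With 1 array per pig, spread between pigs and between array runs cannot be told apart. The fits were also run on simulated data with independent normal noise, in which probe sets of low mean or high spread were not among the changed ones. Those runs therefore do not cover differences at low values or at high spread. Probe sets were named by the array annotation, updated through gene IDs (10069 probe sets with 1 gene), and members also by the study's list. All member probe sets are described. Of the other pathway genes, those called or with the largest change in each role were named, with further genes of each role chosen after their values were seen. Markers named were those called, those with the smallest p and defining ones, with VWF and ERG added after their values were seen. Members and lists were chosen with earlier results of these data known. The alternatives were an intensity trend, robust variances, array weights, median centring, the replicate number as a block, no minimum fold, a filter on low values, other CV filters (one within each sex, chosen after seeing the data), all probe sets of a gene, and leaving out each array. Plots were made in Python 3.11.15 with matplotlib 3.10.9.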

Additional observations from a re-analysis of the deposited data

How the results depend on the processing

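Over all probe sets, 1 complement probe set was called with an intensity trend, robust variances, median-centred arrays, no minimum fold or a filter on low values, as in the comparison reported. With array weights 3 were called (280 of all probe sets, against 73), with CD55-c (adjusted p = 0.0457 from limma) and CR2 (CR1) (0.0391) besides CD55-a. With array weights C1S had a log2 fold change of 0.20 in place of -0.089. The cause was not tested. Leaving out 1 array, the log2 fold change ranged from -0.34 to 0.11 for C1S, from -0.083 to 0.35 for C1R and from -0.041 to 0.15 for CD59-a. Leaving out 1 array gave 0 to 3 calls (3 without male replicate 3, 0 without any other array), among 13 to 285 over all probe sets. Where the filter kept the highest CV over all arrays, 2 or 3 were called in every alternative run, and CD55-c was the one lost at 5% (adjusted p = 0.0507 from limma). Leaving out the highest CV within a sex, chosen after seeing the data, gave 1 call in place of 3 at 10% (CD55-a, with 12 of 16 tested) and 0 at 20% (10 of 16 tested, without CD55-a, CD55-c and CR2 (CR1)), since the filter removed the probe sets before the test. The number of complement probe sets without overlap of the sexes was 5 with median-centred arrays and 6 to 9 when 1 array was left out (8 without male replicate 1, 9 without female replicate 2), where fewer arrays make overlap less likely. No other pathway gene was called over all probe sets with no minimum fold, the replicate block or a filter on low values. The same held with all probe sets of a gene and when each array was left out. Calls of these genes were not counted with an intensity trend, robust variances, array weights or median centring.

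The sample titles name no pairing of the pigs, so the main comparison used none. Same-numbered male and female arrays deviated from their sex means with correlations of -0.10, 0.01 and 0.27, and differently numbered ones with -0.22 to 0.21. With 3 arrays per sex, these values cannot decide whether same-numbered arrays belong together. With the replicate block, 2 complement probe sets were called over all probe sets in place of 1 (204 in place of 73 of all), the added one being CR2 (CR1) (adjusted p = 0.0175 from limma), and 3 with the CV filter. Under naming by the array annotation only, chosen after seeing the data, the CR2 (CR1) probe set drops out, and 1 probe set was called over all probe sets, 2 with the CV filter and 4 did not overlap. Depth in the sense of counts does not apply, and the 2 CD55 probe sets under the 25th percentile on all arrays limit what can be said of them.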
